A study of Mus musculus with 46 samples.

Results

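The 7 genes described here mark primed or formative pluripotency: Fgf5, Otx2, Pou3f1, Zic2, Zic5, Utf1 and Grhl2. They were taken by symbol from a table of 37108 genes, and as 24 transcripts summed by symbol from a second table of 106520 transcripts. The question was whether they rise transiently while mouse embryonic fibroblasts (MEF) are reprogrammed to induced pluripotent stem cells (iPSC). RNA-seq was available for 46 samples. Every reprogrammed culture carried retroviral Oct4 (gene symbol Pou5f1) with either native Nanog (NanogWT) or Nanog fused to an N-terminal piece of SS18 that binds the BAF chromatin remodeller (NanogBiD, NanogN70 in the labels). Libraries were made in duplicate on 8 days from D0 to D12 (D1, D3 and D5, then D7 and D8, then D10), except for 1 NanogBiD library at D8, which gave 31 time-course libraries. Established iPSC were sampled 6 times per combination, from the lines the labels call iPSC1 and iPSC2, beside 2 uninfected MEF samples and 1 sample of mouse embryonic stem cells (mES).

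Per the study's methods, the fibroblasts came from embryos of OG2 males, which carry an Oct4-GFP reporter, crossed to females of another strain. D0 followed the viral infections. The cells were then kept in the induction medium iCD3. After 7 days, or at another chosen time, they were moved to N2B27 with 2i and LIF, the medium in which the iPSC and mES were also kept feeder-free. The methods do not give the day for this course, and the change of medium is taken here as after D7. The 2i component PD0325901 blocks the MEK kinase. Day and medium can therefore not be told apart across D7 and D8. The cultures were not sorted, and in such bulk samples fewer cells of a type and less RNA per cell cannot be told apart. The labels do not say that replicates came from separate cultures, so p-values measure the spread between these libraries only.

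Pluripotency passes through a naive, a formative and a primed state between the blastocyst and the gastrula. Cells leave the naive state when FGF and MEK signalling acts on them and naive factors such as Esrrb decline. OTX2 then moves with OCT4 to new enhancers, and POU3F1 (also called OCT6) and FGF5 appear. Zic2 and Zic5 code zinc-finger factors of the epiblast and the neural plate. Utf1 codes a chromatin-bound protein of the pluripotent epiblast, and Grhl2 a factor that keeps epithelial enhancers open.

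The genes lie on 6 chromosomes of the mm10 assembly (GRCm38). Fgf5 is at chr5:98254184-98277033 (plus strand), Pou3f1 at chr4:124657646-124660655 (plus), Utf1 at chr7:139943856-139945112 (plus), Otx2 at chr14:48656781-48667644 (minus) and Grhl2 at chr15:37232821-37363569 (plus). Zic5 (chr14:122459160-122465658, minus) and Zic2 (chr14:122475384-122480328, plus) are neighbours that point away from each other, with 9725 bases between them.

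RefSeq sequences of the 250 bases before the gene start (GRCm38.p6) were on hand for 4 of the 7 genes. Those of Utf1 and Zic5, which were highest at the end of both paths, and of Fgf5, which ran the other way, are shown so that their bases can be compared. Capitals mark GC boxes, the letters GGGCGG on either strand, which may overlap.

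Utf1, chr7:139943606-139943855, plus: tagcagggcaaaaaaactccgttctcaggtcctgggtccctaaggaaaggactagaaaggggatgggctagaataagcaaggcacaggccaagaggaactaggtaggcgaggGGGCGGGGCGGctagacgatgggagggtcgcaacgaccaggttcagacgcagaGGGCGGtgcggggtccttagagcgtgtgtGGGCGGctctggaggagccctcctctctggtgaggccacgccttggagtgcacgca
Zic5, chr14:122465659-122465908, minus: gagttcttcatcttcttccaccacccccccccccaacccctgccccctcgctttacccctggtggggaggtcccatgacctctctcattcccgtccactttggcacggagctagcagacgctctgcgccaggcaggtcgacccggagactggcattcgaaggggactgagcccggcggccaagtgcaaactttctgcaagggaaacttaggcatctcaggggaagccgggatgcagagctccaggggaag
Fgf5, chr5:98253934-98254183, plus: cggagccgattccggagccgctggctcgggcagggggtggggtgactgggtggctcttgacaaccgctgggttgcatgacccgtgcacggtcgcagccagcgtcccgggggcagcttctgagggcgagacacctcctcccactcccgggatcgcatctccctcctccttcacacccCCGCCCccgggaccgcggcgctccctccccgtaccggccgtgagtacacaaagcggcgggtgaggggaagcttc

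Utf1 held 4 GC boxes, Fgf5 held 1 and Zic5 none, and 32.7% of all 32851 such windows held at least 1. The Fgf5 window had 24 CpG and 70.8% GC, Utf1 14 CpG and 61.6% GC, and Zic5 11 CpG and 62.4% GC, where the median over all windows was 6 CpG and 52.4% GC. The octamer ATGCAAAT, searched on both strands, was in none of the windows of these 4 genes and in 1.60% of all windows.

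The values deposited are FPKM, fragment numbers corrected for transcript length and for how deeply each library was sequenced. Total FPKM per time-course library ran from 370030 to 462190. Depth relative to a typical library, read from the steps between low values, was 0.83 to 1.13 except for the 6 NanogWT libraries of D8 to D12, which stood at 1.91 to 3.28. From D8 on, the depth of a library and its combination cannot be told apart. One step at a relative depth of 1 was worth 0.0122 FPKM for Otx2 and 0.0536 for Utf1, so values of a few hundredths of an FPKM rest on 1 or 2 steps. No step could be resolved for Zic2. The labels were checked on defining markers. MEF summed to 5646 to 6612 FPKM over 8 fibroblast markers and 0 over 5 pluripotency markers, and mES to 14 and 3151.

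Differences are on the log2(FPKM + 1) scale, which understates changes of low genes, and come from 1 limma model over the time course. Calls needed both a difference of at least 1 (2-fold) and a Benjamini-Hochberg adjusted p below 0.05. Genes needed 1 FPKM in 2 time-course libraries, which left 16842 genes and 5 of the 7 members. Fgf5 reached 1 FPKM in 1 library and Grhl2 in 0, so both are given by their values. Of the tested members, only Zic2 reached 1 FPKM at D0. The others were admitted by later libraries, so their rises from D0 draw on the values that admitted them. The same holds for listed genes that were under 1 FPKM at D0.

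The mES sample, grown under naive conditions, separated the members. Utf1 was at 121 FPKM, Zic2 at 18.3, Zic5 at 5.90 and Pou3f1 at 5.65, while Otx2 was at 1.49, Grhl2 at 0.564 and Fgf5 was listed at 0. Thus 4 members were well above 1 FPKM in cells kept out of the primed state. In MEF the order was different. Fgf5 was at 2.28 and 0.383 FPKM, Zic2 at 4.42 and 1.60 and Zic5 at 0.239 and 0.207, and the other 4 were listed at 0 in both samples.

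No member was raised transiently by the rule used, a called rise above D0 followed by a called fall from that day to D12. The limma count was 0 of 5 on both paths, beside 7.04% of all tested genes with NanogBiD and 5.66% with NanogWT. At an unadjusted p under 0.05 it was 0 with NanogBiD and 1 with NanogWT. Ending the fall at D7 gave 0 of 5 on both paths as well (background 1.36% and 0.564%), and 1 and 0 at an unadjusted p. The unadjusted cases were both Pou3f1. A fall to any later day, a rule added after seeing the data, again gave 0 of 5 (background 8.03% and 6.46%). At such shares 0 is a likely count for any 5 genes, so it does not set the members apart. Pou3f1 rose early and stayed above D0. With NanogBiD it was lower at D7 than at D5, without a call (-1.23, adjusted p = 0.0776). Zic2, Zic5, Utf1 and, at a low level, Otx2 rose mainly from D7 or later, and Fgf5 declined.

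**Figure D1:**
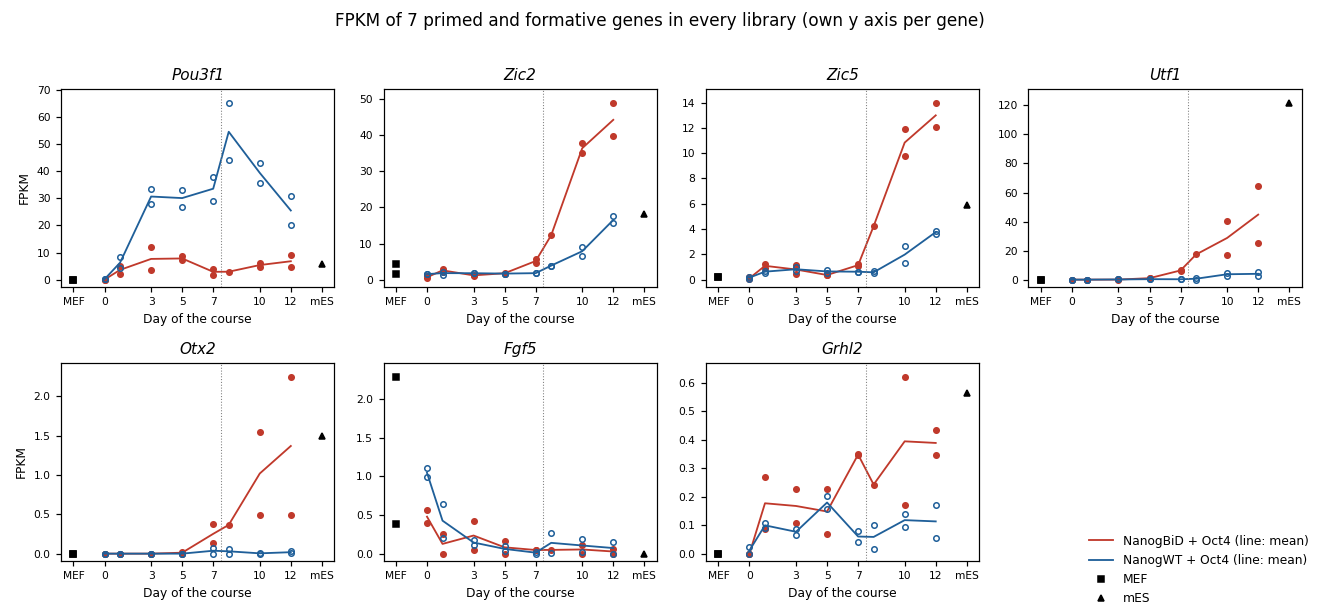
FPKM of the 7 genes (y axis, linear, own scale per gene) against day (x axis), with points for libraries, lines for means (NanogBiD red and filled, NanogWT blue and open), squares for MEF, triangles for mES and a dotted line at the change of medium. Pou3f1 rose from D1 and higher with NanogWT, reaching 65.0 FPKM at D8, whereas Zic2, Zic5 and Utf1 rose mainly from D7 on and higher with NanogBiD.

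Pou3f1, which codes the POU factor of the formative epiblast, was called from D1 on both paths, alone with NanogWT and together with Zic2 with NanogBiD. With NanogBiD its 2 libraries of D0 held 0 and 0.0407 FPKM, followed by 5.18 and 2.02 (D1), 11.9 and 3.37 (D3), and 7.08 and 8.55 (D5). D7 had 3.95 and 1.82, D8 had 2.92 in its single library, D10 had 4.79 and 5.96, and D12 had 4.55 and 9.01. All 13 libraries after D0 lay above both D0 libraries, and the level did not pass 12 FPKM. The rise from D0 was called at every day tested, from 2.08 (SE 0.43, adjusted p = 0.00129) at D1 to 3.11 (adjusted p = 7.75e-06) at D5 and 2.87 (adjusted p = 9.38e-06) at D12.

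With NanogWT the same gene went much higher. D0 had 0.224 and 0.0841 FPKM, D1 had 8.18 and 4.33, D3 had 27.9 and 33.4, D5 had 26.9 and 33.2, and D7 had 37.9 and 29.2. The highest values came on D8, with 44.1 and 65.0, followed by 43.0 and 35.7 (D10) and 30.9 and 20.1 (D12). From D3 on, every NanogWT library was above every NanogBiD library of the course. The rise from D0 was 2.60 (adjusted p = 0.000163) at D1 and 4.77 (adjusted p = 4.00e-08) at D3, reached 5.56 (adjusted p = 3.81e-09) at D8 and stood at 4.49 (adjusted p = 8.14e-08) at D12. At D8 the mean was 9.65 times that of the mES sample.

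Pou3f1 showed the largest falls from a called level, none of which passed the test. With NanogBiD it was lower at D7 than at D5 by a log2 difference of -1.23 (SE 0.43, adjusted p = 0.0776) and than at D3 by -1.01 (adjusted p = 0.123). With NanogWT it was lower at D12 than at D8 by -1.07 (adjusted p = 0.13). Leaving out either NanogBiD library of D3, which differed from each other at 11.9 and 3.37 FPKM, put the D5 to D7 difference past it (adjusted p = 0.0336 and 0.0335 at the same -1.23), and the count of transient members by D7 then became 1.

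Zic2, the zinc-finger factor of epiblast enhancers, followed another course. With NanogBiD, D0 had 0.415 and 0.909 FPKM, D1 had 3.00 and 2.13, D3 had 1.11 and 1.26, and D5 had 1.59 and 1.95. It then reached 5.67 and 4.62 by D7, 12.3 by D8, 37.8 and 35.0 by D10, and 48.8 and 39.7 by D12. A small early step at D1 was thus followed by lower values and, from D7, by a steep climb. The D1 step was called at 1.11 (SE 0.18, adjusted p = 0.000167), and the drop from D1 to D3 passed the p threshold but not the 2-fold limit (-0.70, adjusted p = 0.0144). The D1 call fell below the 2-fold limit without the first D0 library (0.89) or the first D1 library (0.93) and under quantile normalization (0.94). At D7 the rise was 1.90 (adjusted p = 7.44e-08) and at D12 it was 4.77 (adjusted p = 2.42e-13).

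Zic5, its neighbour, moved with it at a lower level. The NanogBiD libraries of D0 held 0.0497 and 0.173 FPKM, those of D1 0.911 and 1.27, those of D3 1.18 and 0.424, those of D5 0.375 and 0.354, and those of D7 1.22 and 1.07. Levels then reached 4.23 by D8, 9.77 and 11.9 by D10, and 13.9 and 12.0 by D12. The differences at D1 (0.91, adjusted p = 0.00279) and D7 (0.95, adjusted p = 0.000873) stayed under 2-fold, and the gene was first called at D10 (3.41, SE 0.21, adjusted p = 9.63e-11). The early differences depend on the scale, since with a pseudocount of 0.1 they were called at D1 (2.54), D3 (2.01), D5 (1.2) and D7 (2.62), and after rescaling to a common total at D1, D3 and D7. The drop from D1 to D5 passed the p threshold but not the 2-fold limit (-0.61, adjusted p = 0.0385). Across the 31 libraries the log2 levels of Zic2 and Zic5 correlated at r = 0.959, a description over points that share days and libraries.

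With NanogWT both Zic genes stayed low until the change of medium. Zic2 ranged from 1.38 to 2.22 FPKM over the 10 libraries of D0 to D7 and was then at 3.88 and 3.89 at D8, 6.62 and 9.09 at D10, and 15.5 and 17.5 at D12. For Zic5, D0 had 0.246 and 0.0767 FPKM, D1 had 0.707 and 0.553, D3 had 0.644 and 0.999, D5 had 0.525 and 0.772, and D7 had 0.612 and 0.638. Its 8 libraries of D1 to D7 thus lay above both D0 libraries, by differences under 2-fold on this scale, of which D3 passed the p threshold (0.65, adjusted p = 0.0191). With a pseudocount of 0.1 they were called at D1 to D7 (1.55 to 1.87). It was then at 0.657 and 0.503 at D8, 1.29 and 2.66 at D10, and 3.64 and 3.88 at D12. Both were called from D10 on the scale used, Zic2 at 1.80 (adjusted p = 2.10e-07) and Zic5 at 1.32 (adjusted p = 4.10e-05). By D12 the rises were 2.79 and 2.04 (adjusted p = 5.00e-10 and 1.70e-07).

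At D12 the NanogBiD cultures carried more Zic2 and Zic5 than the pluripotent reference. Zic2 averaged 44.2 ± 6.5 FPKM (SD, n = 2), 2.42 times the mES sample, and Zic5 13.0 ± 1.3, 2.2 times. With NanogWT Zic2 averaged 16.5 ± 1.4 (0.903 times) and Zic5 3.76 ± 0.17 (0.637 times). Because mES was 1 sample, these ratios have no test. In the transcript table, which was scaled separately, the 6 NanogBiD iPSC samples held Zic2 at 14.5 to 18.6 FPKM against 14.2 in mES.

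Utf1 was listed at 0 in all 8 libraries of D0 and D1. With NanogBiD, D3 had 0.107 and 0 FPKM, D5 had 0.907 and 1.11, D7 had 6.62 and 6.04, D8 had 17.3, D10 had 40.5 and 16.9, and D12 had 64.5 and 25.0. With NanogWT, D3 had 0.114 and 0.112, D5 had 0.458 and 0.183, D7 had 0.218 and 0.302, D8 had 0 and 1.23, D10 had 2.53 and 4.87, and D12 had 2.43 and 5.59. From D5 on the NanogBiD libraries lay above the NanogWT libraries of the same day. At D5 the difference was not called (0.61, adjusted p = 0.348), and D7 was the first day with a call between the combinations. How many of all genes separate in this way was not counted. The rise was called from D7 with NanogBiD (2.87, SE 0.41, adjusted p = 1.30e-05) and from D10 with NanogWT (2.19, adjusted p = 0.000322). Utf1 reached 1 FPKM only from D5 on, so these calls draw on the values that admitted it. At D12 the differences from D0 were 5.37 (adjusted p = 1.42e-09) and 2.25 (adjusted p = 0.000229), whose size depends on the pseudocount because D0 was at 0. The NanogBiD mean at D12, 44.8 ± 28 FPKM, was 0.369 times that of mES.

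Otx2, the homeobox factor that directs exit from the naive state, appeared late and weakly and with 1 of the combinations. It was listed at 0 in the 6 NanogBiD libraries of D0 to D3, and then reached 0.0241 and 0 FPKM by D5, 0.371 and 0.132 by D7, 0.366 by D8, 1.55 and 0.488 by D10, and 2.24 and 0.496 by D12. No NanogWT library exceeded 0.0738. Otx2 entered the test through 2 libraries at 1 FPKM or more, the first of D10 and the first of D12 with NanogBiD, so calls in favour of late NanogBiD libraries draw on the values that admitted it. Otx2 was called at D12 with NanogBiD (1.14, SE 0.24, adjusted p = 0.000408). The first D12 library decided the call, which ended without it (0.58, adjusted p = 0.0181) and under quantile normalization (0.82).

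Fgf5, the ligand that marks the primed epiblast, ran the other way. With NanogBiD it was at 0.393 and 0.563 FPKM at D0, 0 and 0.252 at D1, 0.0495 and 0.419 at D3, and at most 0.163 in the 9 libraries from D5 on. With NanogWT it was at 1.11 and 0.986 at D0, 0.645 and 0.208 at D1, and at most 0.267 in the 12 libraries from D3 on. All 14 later NanogWT libraries lay below both D0 libraries, as did 12 of the 13 later NanogBiD libraries. Without the filter on low values the NanogWT decline was called at D7 (-1.01, SE 0.16, adjusted p = 8.32e-05). At no day of either path did a library exceed the higher D0 library.

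Grhl2 stayed under 1 FPKM throughout. It was listed at 0 in both NanogBiD libraries of D0, reached 0.620 in the highest library at D10, and was at 0.433 and 0.345 at D12. The NanogWT libraries ranged up to 0.201. Epithelial markers, among which Cdh1 codes E-cadherin, rose with NanogBiD in 7 of 7 tested at D12 and with NanogWT in 2 of 7. The shares of all tested genes called higher were 24.6% and 12.2%. Cdh1 and Epcam averaged at most 0.0485 FPKM at D0 on both paths, so their calls draw on the later values that admitted them. Their summed level was 79.2 to 156 FPKM against 4.96 to 15 FPKM.

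The number of members called higher than D0 grew late on both paths. All tested members but Zic2 were under 1 FPKM at D0 and entered the test through later libraries, so the counts are not free of the filter. With NanogBiD it was 2 of 5 at D1 (background 5.06% of all tested genes), 1 at D3 (8.95%), 1 at D5 (13.3%), 3 at D7 (12.7%), 4 at D10 (21.6%) and 5 at D12 (24.6%). With NanogWT it was 1 of 5, namely Pou3f1, at every day from D1 to D8 (background 4.61%, 9.55%, 10.8%, 12.0% and 12.8%) and 4 at D10 and D12 (11.8% and 12.2%). The median difference of the members at D12 was 3.65 with NanogBiD and 2.25 with NanogWT, where the median of all tested genes was 0.34 and 0.19. Scaling moved that median of all genes by up to 0.36. Of 55 called differences of members (from D0, between the combinations, or in the interaction), 52 stayed at least 2-fold relative to it, and the other 3 were those of Otx2.

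The combinations were then compared day by day. No member was called at D0 or D1 in limma, where 0.760% and 1.33% of all genes were. At an unadjusted p under 0.05 with no fold limit the counts were 1 and 0. Pou3f1 was the first to separate, lower with NanogBiD at D3 (-2.07, SE 0.43, adjusted p = 0.00316, background 3.70%) and at D5 (-1.82, adjusted p = 0.00566, background 6.48%). These early calls rest on few libraries. The D3 call was lost without the second NanogBiD library of D3 (-1.29, adjusted p = 0.0683) and in a fit to the compared groups alone (adjusted p = 0.103), and the D5 call without the first NanogBiD library of D5 (adjusted p = 0.0565).

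At D7, 3 of 5 members were called, beside 10.4% of all genes. Pou3f1 was lower with NanogBiD by -3.20 (adjusted p = 1.37e-05), whereas Zic2 was higher by 1.13 (adjusted p = 9.93e-05) and Utf1 by 2.54 (adjusted p = 0.000112). At D10, 4 members were called (background 27.8%), with Zic5 higher by 2.02 (adjusted p = 1.12e-07), and at D12 all 5 tested (background 23.4%). The D12 differences were 1.36 for Zic2 (adjusted p = 4.14e-06), 1.55 for Zic5 (adjusted p = 3.63e-06), 3.12 for Utf1 (adjusted p = 3.81e-06), 1.11 for Otx2 (adjusted p = 0.000718) and -1.80 for Pou3f1 (adjusted p = 0.00164). The Otx2 call was lost without the first NanogBiD library of D12 (0.55) and under quantile normalization (0.85), and Otx2 was in the test only because of 2 late NanogBiD libraries. Pou3f1 was the only tested member called on the NanogWT side at each of these days.

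**Figure D2:**
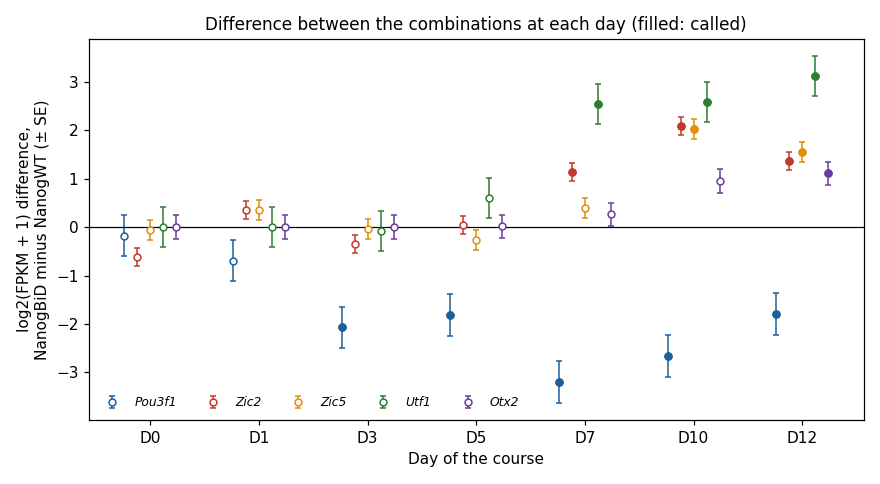
Difference of the log2(FPKM + 1) means, NanogBiD minus NanogWT (y axis, ± SE), at each day with duplicate libraries (x axis) for the 5 tested members, with filled points for called differences. Pou3f1 lay at -3.20 at D7, below 0 at every called day, and Zic2, Zic5, Utf1 and Otx2 lay above 0 at D12, between 1.11 and 3.12.

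The change from D0 itself was compared between the combinations with an interaction contrast. It was called for 0 of 5 members at D5 (1 at an unadjusted p under 0.05 and 2-fold), for 3 at D7, for 4 at D10 and for all 5 at D12, beside 7.66%, 10.1%, 27.2% and 23.9% of all genes. The interaction of Pou3f1 was -3.02 (SE 0.61, adjusted p = 0.00172) at D7 and -1.62 (adjusted p = 0.0417) at D12. The D12 value was lost with a pseudocount of 0.1 (-0.90, adjusted p = 0.376), without the filter on low values (adjusted p = 0.0796) and after rescaling to a common total (adjusted p = 0.0743). It was also lost without the first or the second library of D0 on either path, or without the first D12 library of either (adjusted p = 0.187 with NanogBiD, 0.146 with NanogWT).

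Close relatives of the members were examined next, from a list of 9 genes, 7 of which passed the filter. At D12, 7 of 7 were called higher than D0 with NanogBiD and 6 of 7 with NanogWT, with median differences of 3.89 and 2.83. The shares of all tested genes were 24.6% and 12.2%. At D7, 2 of 7 were called on each path, among them Grhl3 (background 12.7% and 12.0% higher). None met the transient rule. Zic1, a gene of the dorsal neural tube, was at 68.7 and 90.3 FPKM at D12 with NanogBiD and at 50.0 and 51.1 with NanogWT, where mES had 0.195. Pou3f2 and Pou3f3, POU factors of neural progenitors, averaged 19.1 and 34.2 FPKM with NanogBiD and 6.64 and 15.6 with NanogWT at D12, where mES had 0.351 and 0.382. At D10, all 7 tested relatives were called higher with NanogBiD than with NanogWT, beside 15.4% of all tested genes. By D12, Pou3f2 (1.38, adjusted p = 0.00184), Pou3f3 (1.1, adjusted p = 0.0233) and Grhl3 (1.05, adjusted p = 0.00112) were still called. Pou3f1 was thus on the opposite side from the 2 Pou3f relatives that were called.

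**Figure D3:**
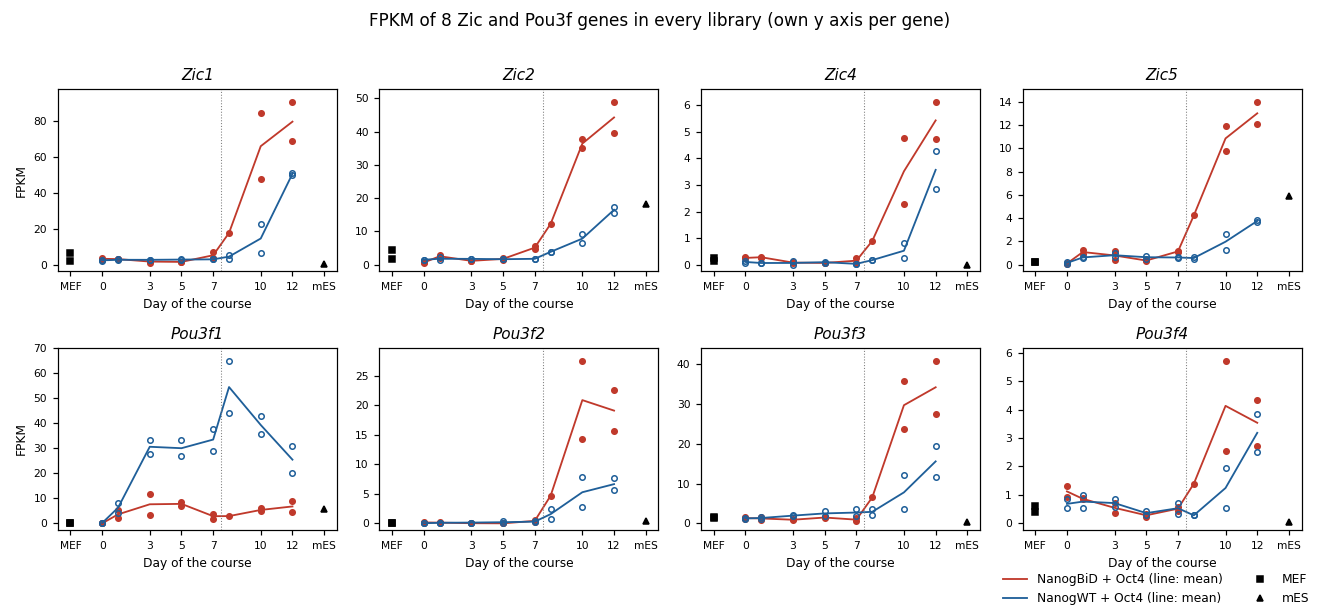
FPKM of 4 Zic and 4 Pou3f genes (y axis, linear, own scale per gene) against day (x axis), with points for libraries and lines for means, MEF as squares, mES as triangles and the change of medium as a dotted line. Zic1, Zic2, Zic4, Zic5, Pou3f2 and Pou3f3 climbed mostly after D7, and Zic1 reached a mean of 79.5 FPKM at D12 with NanogBiD, whereas Pou3f1 climbed from D1 and higher with NanogWT.

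Neural markers were also highest at D12 but followed another course with NanogBiD. Their summed level over 9 genes was then 25.1 to 26.0 FPKM at D0, 239 to 379 at D3, 361 to 384 at D5, 174 to 241 at D7, 338 to 539 at D10 and 446 to 629 at D12. Most of the rise of the sum was thus made by D5, when Zic2 and Zic5 were still low, and a lower level at D7 followed. The sum follows its most abundant genes, with Tubb3 at a mean of 117 and Nes at 60.4 FPKM at D7, so it does not describe each marker. With NanogWT the sum was 44.1 to 45.9 FPKM at D0, 119 to 133 at D7 and 304 to 377 at D12, against 41.0 in mES and 55.0 to 90.1 in MEF. At D12, 8 of 9 were called higher than D0 with NanogBiD and 6 of 9 with NanogWT, with median differences of 3.62 and 2.80. The shares of all tested genes were 24.6% and 12.2%. Tubb3, a tubulin of neurons, averaged 385 and 240 FPKM, Sox1 18.6 and 18.3 and Pax3 17.0 and 7.13. Their part in the levels of Zic2, Zic5 and Pou3f1 was not tested. Already at D7, Sox1 was at a mean of 36.0 FPKM with NanogWT and 15.4 with NanogBiD (-1.17, adjusted p = 0.0168), on the same side as Pou3f1. Tubb3 lay on the other side that day, at 22.1 and 117 FPKM (2.35, adjusted p = 0.000273). Neural crest markers showed 3 of 5 higher and 2 of 5 lower at D12 with NanogBiD, and 1 of 5 each way with NanogWT. The background shares called lower were 10.2% and 3.95%.

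Fibroblast and pluripotency markers differed in the same samples. At D12, 7 of 8 fibroblast markers were called lower than D0 with NanogBiD, with a summed level of 255 to 398 FPKM. With NanogWT 2 rose and 1 fell, and the sum was 2276 to 2865. Of all tested genes, 10.2% were called lower and 24.6% higher at D12 with NanogBiD, and 3.95% and 12.2% with NanogWT. The 5 pluripotency markers rose in 5 of 5 cases on both paths by D12, to sums of 951 to 1812 FPKM with NanogBiD and 115 to 179 with NanogWT. Most of these sums was Dppa5a, at means of 1132 and 124 FPKM. Of the 17 naive genes, 17 were called higher at D12 with NanogBiD and 13 with NanogWT, among them Esrrb at 59.6 and 6.82 FPKM. The share of reprogrammed cells in these cultures was not measured here, so its part in the differences of the members was not tested. Of the 4 primitive endoderm and 4 trophoblast markers, 2 and 3 passed the filter, and 0 were called higher at D12 on either path.

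Among 20 other formative and primed genes, 19 passed the filter, and some of them rose and fell. With NanogBiD 12 of 19 were called higher at D7 and 13 at D12, with 1 lower, beside 3 of 19 and 7 of 19 with NanogWT, with 1 lower each time. Of all tested genes, 12.7% and 24.6% were called higher on these days with NanogBiD, and 12.0% and 12.2% with NanogWT. The median difference at D12 was 1.68 and 0.78. Lef1, a mediator of WNT signalling, and Dnmt3b, a DNA methyltransferase of the epiblast, rose by D7 with NanogBiD, to means of 11.4 and 6.61 FPKM against 1.01 and 0.348 with NanogWT (differences of 2.63 and 2.50, adjusted p = 8.19e-07 and 2.07e-07). Nodal, the TGF-beta ligand of the epiblast, Foxd3 and Fgf15 rose later, to means of 12.4, 10.5 and 9.88 FPKM at D12 with NanogBiD. With NanogWT their means were 1.33, 2.43 and 7.44 FPKM on that day. The difference was called for Nodal (2.47, adjusted p = 1.32e-06) and Foxd3 (1.77, adjusted p = 6.04e-07) but not for Fgf15 (0.37, adjusted p = 0.375). The transient rule, a called rise and a called fall by D12, was met by 4 of 19 with NanogBiD (Nkx1-2, T, Cdh2 and Etv4) and by 2 of 19 with NanogWT (Etv4 and Sox3). The shares of all tested genes were 7.04% and 5.66% as above. T and Nkx1-2 reached 1 FPKM with NanogBiD only, T in both libraries of D7 and the second of D10 (1.01 FPKM). Their calls thus draw on the values that admitted them, and the count of 4 includes them. These 5 genes were picked by the rule from the list, so their courses below are descriptions.

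Nkx1-2, a homeobox gene of the caudal epiblast, was listed at 0 in NanogBiD libraries of D0 and D1. It was at 4.39 and 5.68 FPKM at D5, 38.9 and 32.5 at D7, 19.4 at D8, 1.52 and 3.77 at D10 and 1.04 and 1.3 at D12. T, the Brachyury gene of the primitive streak, peaked on the same day at 3.71 and 4.20 FPKM, with 0.502 at D8 and 0.244 and 0.331 at D12. With NanogWT neither gene passed 0.885 FPKM in any library. The peak of these genes thus fell on the last day before the change of medium, when Pou3f1 stood at 3.95 and 1.82 FPKM in the same libraries.

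Etv4, an ETS factor induced by FGF and MEK signalling, was lower at D8 than at D7 on both paths. With NanogBiD it was at 30.2 and 21.6 FPKM at D7, 4.66 at D8 and 0.288 and 0.492 at D12, and with NanogWT at 30.4 and 20.9, then 2.66 and 1.51, and 2.15 and 1.76. Pou3f1 was at 2.92 FPKM in the single D8 library against 3.95 and 1.82 at D7 with NanogBiD. With NanogWT it was at 44.1 and 65.0 against 37.9 and 29.2, a difference that was not called (0.67, adjusted p = 0.31). The part of the medium in the levels of either gene was not tested. Sox3, a SOXB1 factor of epiblast and neural plate, peaked with NanogWT at 24.9 and 24.3 FPKM at D3 and was at 1.88 and 1.82 at D8. Cdh2, which codes N-cadherin, was at 41.1 and 37.8 FPKM at D1 with NanogBiD and at 11.4 and 19.2 at D12.

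**Figure D4:**
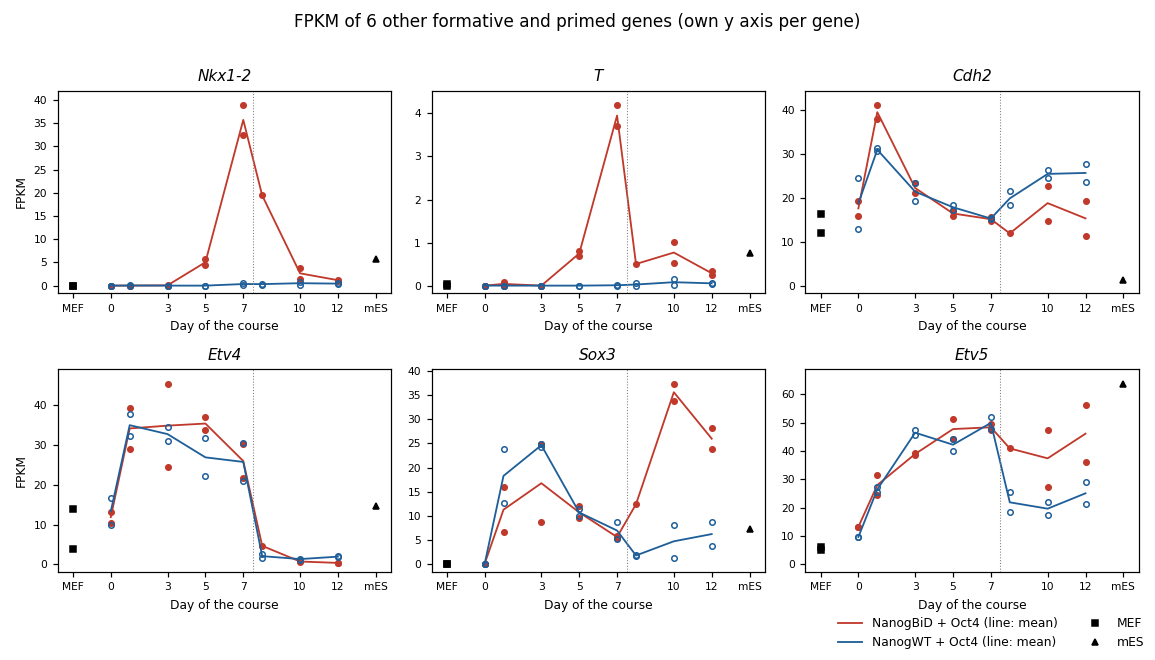
FPKM of 6 other formative and primed genes (y axis, linear, own scale per gene) against day (x axis), with points for libraries and lines for means, MEF as squares, mES as triangles and the change of medium as a dotted line. Nkx1-2 and T peaked at D7 with NanogBiD alone, at means of 35.7 and 3.95 FPKM, and Etv4 dropped after D7 on both paths, while Etv5 is shown as its relative.

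The genes most like each tested member were found by Pearson r of the log2 levels over the 31 libraries. Utf1 ran closest to Esrrb (r = 0.987), a naive nuclear receptor, then Cdh1 (0.984) and Tdh (0.983), the threonine dehydrogenase of mES. Zic2 ran closest to Efnb3, Dppa5a and Mapk8ip2 (0.973 to 0.974), and Zic5 to Prmt8, Lefty2 and Rimklb (0.965 to 0.966). Otx2 ran with Cblc, Plet1 and Plet1os (0.958 to 0.965), of which the last pair overlap on opposite strands and could share reads. Pou3f1 had the lowest likeness, with Tnfrsf21 (0.935), Nat8l and Tspan5. Among the members, Pou3f1 correlated with the other 4 at -0.15 to 0.13, whereas those 4 correlated with one another at 0.76 to 0.96. These values describe libraries that share days.

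Established iPSC were compared in the transcript table, where 13312 genes and 6 of the 7 members passed the same filter over the iPSC and MEF samples. Utf1 ran from 58.5 to 167 FPKM over the 6 NanogBiD samples (median 142) and from 86.7 to 143 over the 6 NanogWT samples (median 101), with 96.0 in mES. Zic2 was at 14.5 to 18.6 (median 16.2) and 12.1 to 26.7 (median 17.6), and Zic5 at 4.65 to 7.5 (median 5.40) and 4.60 to 6.52 (median 5.67). Pou3f1 was at 1.03 to 3.54 and 1.16 to 3.29, below the 4.24 of mES in all 12 samples. The ranges of the combinations overlapped for every member.

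Otx2 varied widely, at 0.217 to 2.76 FPKM in NanogBiD and 0.735 to 5.58 in NanogWT iPSC, with 2.64 in mES. Grhl2 reached 0.754 to 1.54 and 0.557 to 2.67, above 1 FPKM in several samples. Fgf5 was listed at 0 in all 5 samples of the iPSC2 lines and was at most 0.286 in NanogWT iPSC. One NanogBiD sample of line iPSC1 held 0.848 FPKM of Fgf5, apart from the other 5 at 0 to 0.174.

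No gene was called between NanogBiD and NanogWT iPSC by limma with the line as covariate (0 of 13312, 0% background). The covariate joins lines of the same name across the combinations and carries their passage. Samples of a line were treated as replicates, so the p-values measure the spread between these samples only. At an unadjusted p under 0.05 there were 215 genes and 0 members. The differences of the members lay between -0.59 (Otx2, SE 0.33) and 0.09 (Pou3f1, SE 0.19), which does not show that the lines were alike. Against MEF, 6 of 6 tested members were higher in iPSC, beside 21.9% of all genes. Of these members, only Zic2 reached 1 FPKM in MEF (3.58 and 1.22). The others passed the filter through iPSC only, so their calls draw on the values that admitted them. Utf1 differed by 6.84 (adjusted p = 3.32e-10), Zic5 by 2.51, Zic2 by 2.49, Pou3f1 by 1.5, Otx2 by 1.46 (adjusted p = 0.00730) and Grhl2 by 1.21 (adjusted p = 0.000393). The Otx2 call was lost without either MEF sample (adjusted p = 0.0549 and 0.0553).

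**Figure D5:**
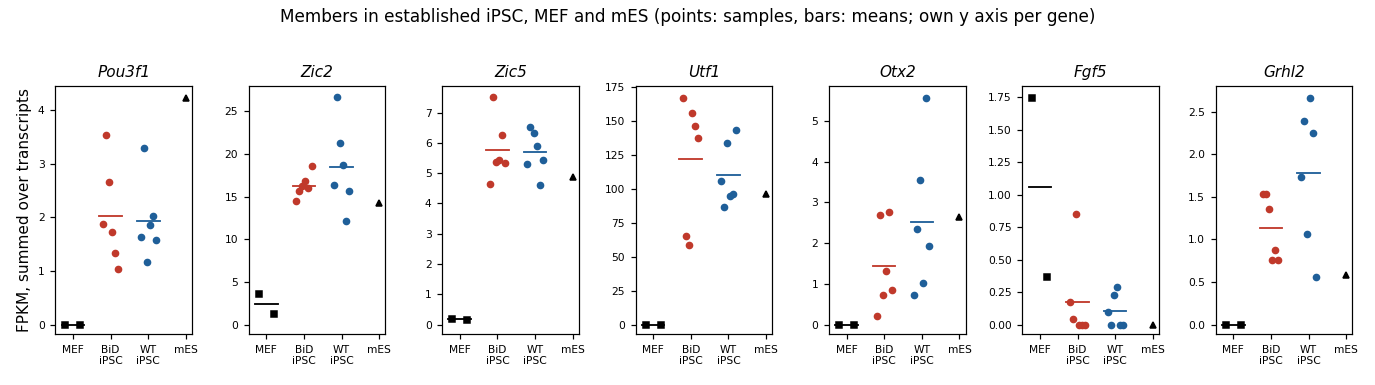
FPKM summed over transcripts (y axis, linear, own scale per gene) for the 7 members in MEF, NanogBiD iPSC, NanogWT iPSC and mES (x axis), with points for samples and bars for means. The iPSC of both combinations overlapped for every member, and Fgf5 stayed under 1 FPKM in all 12 iPSC samples.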

How the data were processed

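RNA-seq of 46 mouse samples was analysed. Per the study's methods and the submitters' processing notes, the authors trimmed reads with Trim Galore 0.6.4, aligned them to mm10 with HISAT2 2.2.1 and quantified with StringTie 2.2.1. The FPKM values deposited by the authors are per gene (37108 genes, 34 samples) or per transcript (106520 transcripts, 15 samples), with replicates kept apart. The annotation and the use of strand are not given in the sources used here, so a gene and an antisense partner cannot be told apart. Count models were not applied, since FPKM are not counts.

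Values were analysed as log2(FPKM + 1) with limma 3.58.1 (R 4.3.3), whose moderated test is two-sided and whose variance prior followed mean expression, with a mean per combination and day over all 31 time-course libraries, and adjusted over all tested genes. NanogBiD at D8, with 1 library, was described without a call. The iPSC model held combination, MEF and, as covariate, line. Transcripts were summed by symbol, and the tables were tested separately. Relative depth came from low values that are whole multiples of a step, with 96.1% to 99.1% of low values per library whole within 0.05 of a step. Python 3.11.15, pandas 2.3.3, numpy 2.4.6 and matplotlib 3.10.9 were used besides. The model was tested on simulated data.

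The members, lists and rules were chosen with earlier results of these data known. Named were the 7 members, up to 4 genes per list with the largest called difference (D7 or D12 against D0, or between the combinations at D7 or D12) and the 3 genes most like each member. The lists held relatives, other formative and primed, naive, neural, neural crest, epithelial, fibroblast, primitive endoderm, trophoblast and pluripotency genes, some in more than 1 list. A few genes that this rule names are not reported here. Genes named for meeting the transient rule, and Etv5, were chosen after their values were seen. Alternatives were a pseudocount of 0.1, no filter, rescaling to TPM, quantile normalization, no fold limit, a replicate block, a fit to the compared groups alone, no line covariate, merging WT iPSC1 samples 1 and 1-2, and leaving out each sample. A fall to any later day was added after seeing the data.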

Additional observations from a re-analysis of the deposited data

Results flagged for a closer look

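The change from D0 differed between the combinations by the interaction contrast (limma, adjusted p under 0.05 and at least 2-fold) in 12 cases, as NanogBiD minus NanogWT on the log2(FPKM + 1) scale. At D7 these were -3.02 for Pou3f1, 1.75 for Zic2 and 2.54 for Utf1. At D10 they were -2.49 for Pou3f1, 2.71 for Zic2, 2.09 for Zic5 and 2.58 for Utf1. At D12 they were 1.11 for Otx2, -1.62 for Pou3f1, 1.98 for Zic2, 1.61 for Zic5 and 3.12 for Utf1. With a pseudocount of 0.1 the Pou3f1 value at D10 was -1.81 and lost the call (adjusted p = 0.0604). The D10 and D12 values include NanogWT libraries of greater depth, and the part of depth was not tested.

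One iPSC sample stood apart from its group. Fgf5 in sample 9 of NanogBiD line iPSC1 was at 0.848 FPKM, and its gap to the next of the 6 samples was 0.794 of the whole range. The same check was made on 21 sets of samples, and chance flags about 5% of them.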

How the results depend on the processing

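Of 98 single results of members, 3571 values under alternatives gave 0 reversals. The direction and side of the threshold held in 3534, and 37 fell short of the threshold, mostly for the change of Pou3f1 to D12 and for Otx2. Calls of members against D0 numbered 16 of 30 with NanogBiD and 13 of 35 with NanogWT. Rescaling to TPM gave 23 and 21, where 6 of the additional NanogWT calls were falls of Fgf5. A pseudocount of 0.1 gave 24 and 19. The count of transient members stayed 0 under the planned settings that kept every library. Leaving out a library gave 15 to 18 calls with NanogBiD, 12 to 13 with NanogWT, 13 to 15 between the combinations, 10 to 13 interactions, 5 to 6 members between iPSC and MEF and 0 between the iPSC. It gave 0 transient members by D12 and 0 to 1 by D7 with NanogBiD, where the 1 was Pou3f1 without either D3 library.

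The labels give both combinations the same replicate numbers. Deviations of same-numbered libraries correlated at -0.06 to 0.39 over 7 days, above 0.1 on 4 of them. The labels tie the numbers to no shared culture or batch, and each day holds 2 pairs, so the numbers were not taken as pairing the libraries. A fit with a replicate block gave 16, 13, 14 and 12 calls (NanogBiD, NanogWT, between them, and interactions), as did the fit without it. Groups of 2 libraries limit the spread to what they share, and the depth of the transcript table was not derived. The fit to the compared groups alone was not run for interactions or transient counts.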

Other observations

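Beyond the formative genes, the transient rule was met by few genes of the marker lists. With NanogBiD, Cdx2, a caudal and trophoblast factor, was listed at 0 through D3 and was at 0.202 and 0.354 FPKM at D5, 7.29 and 6.28 at D7, 2.45 at D8 and 0.284 and 0.192 at D12. It thus peaked on the day on which Nkx1-2 and T did, and no NanogWT library exceeded 0.605 FPKM. Sox17, an endoderm factor, was highest with NanogBiD at D5, at 2.17 and 2.07 FPKM, and was at 0.310 and 0.0510 at D12. Twist1, a mesenchymal factor, rose to 44.2 and 32.5 FPKM at D1 with NanogBiD and was at 6.03 and 7.81 at D12, whereas with NanogWT it was at 137 and 78.8 at D12. Klf5, a naive factor, met the rule with NanogWT, at 7.58 and 6.26 FPKM at D0, 22.6 and 24.0 at D1 and 8.93 and 12.9 at D12. Cdx2 passed the filter through NanogBiD libraries only. These 4 genes were chosen by the rule, so the values are a description.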
